A study of Schizosaccharomyces pombe with 16 samples.

Results

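Loss of the nuclear poly(A)-binding protein Pab2 was examined in fission yeast on 2 of the 16 tiling arrays of the series, *pab2Δ* replicate 1 and replicate 2. They were chosen by their label alone, and on each array all 174063 tiling probes were used. The *pab2Δ* strain (h+ *leu1-32 ade6-216 ura4D18 pab2Δ::kanMX6*) and the wild-type (WT) strain (h+ *leu1-32 ura4D18 ade6-216*) carried the same auxotrophic markers, and both came from a commercial collection. Both were grown in YEA medium at 30 °C, rRNA was depleted from total RNA, and cDNA was primed with oligo(dT) and random hexamers. cDNA of *pab2Δ* was labelled with Cy5 and cDNA of WT with Cy3, and both were hybridized to the same array. The dyes were not swapped, and on all 16 arrays of the series the mutant was in Cy5. The replicates were biological, 2 for *pab2Δ*. Arrays of *rrp6Δ* (2), *red1Δ* (2) and *rmn1Δ* (1), also grown at 30 °C, were used for comparison. Arrays of *cid14Δ*, *iss10Δ* and *sen1Δ* (2 each) and *mmi1Δ mei4-P572* (1), grown at 30 °C, and of *mtl1-17* (2), shifted to 37 °C, entered the same fit. The *cid14Δ* and *iss10Δ* strains were h90 *ade6-M210* and *sen1Δ* was h+ *ade6-M210*, each a kanMX6 deletion with *leu1-32* and *ura4D18*. The *mtl1-17* strain was h90 *ade6-M210*, and *mmi1Δ mei4-P572* was h- *leu1*. The *red1Δ* and *rmn1Δ* strains, each with a kanMX6 deletion, and their WT control were h90 *ade6-M210* with *leu1-32* and *ura4D18*. The *rrp6Δ* strain (*rrp6Δ::kanMX6*) was h+ *ade6-216* and *leu1-32* with a *ura4* allele, and its WT control carried *ura4 DS/E* and *otr1R(SphI)::ura4+* in an h+ *ade6-216* *leu1-32* background. Control strains thus differed between the mutants, and mating type and *ade6* allele also differed between *pab2Δ* on one side and *red1Δ* and *rmn1Δ* on the other.

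Pab2 is the fission yeast counterpart of human PABPN1. It binds poly(A) tails in the nucleus, and together with Red5 and Rmn1 it forms a submodule of MTREC, a complex built around the helicase Mtl1 and the zinc-finger protein Red1. MTREC delivers RNAs to the nuclear exosome, a 3′ to 5′ exonuclease complex whose nuclear subunit is Rrp6. Pab2 is known for its part in the removal of meiotic mRNAs from growing cells and in the processing of snoRNA precursors.

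Since no probe is paired with a gene in the files, RNAs were described by the numbers of their probes. Neighbouring probes were about 40 bp apart on the part tiled at high resolution (147055 probes) and alternated between the strands, so that a strand was read every 80 bp. A sense unit needed 6 or more successive probes on its strand (3 on the low-resolution part) whose smoothed control signal, averaged over all 16 arrays, was above 7.87 on the log2 scale. The control was wild type on 13 of them, mtl1-flag on the 2 arrays of *mtl1-17* (grown at 23 °C and shifted to 37 °C for 4 h) and mei4-P572 on the array of *mmi1Δ mei4-P572*. Shorter runs, of 2 to 5 probes, were called short transcripts, and the 600 bp behind the 3′ end of a unit with no other unit nearby were called its 3′ flank. U8980 stands for the sense unit, and S5345 for the short transcript, that begins at the probe of that number. Odd-numbered probes were read as the forward strand, because the difference between the signals of odd and even probes followed the gene strands of chromosome II (assembly ASM294v3) with a correlation of up to 0.83 in windows of 5000 probes, over 0.5 in 10 of 22 windows, and not below −0.28 at any offset. There were 4080 sense units, 1307 short transcripts and 430 3′ flanks among 8248 features in all. Each value is the mean log2 ratio of *pab2Δ* over WT across the probes of a feature, after centring each array on its sense units.

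On the 2 arrays, 62.6% and 63.0% of the probes were well above background for *pab2Δ* and 59.4% and 56.9% for WT, and no probe was saturated. The log2 ratios of the 2 arrays correlated with r = 0.81 over single probes, 0.92 over sense units and 0.95 over short transcripts, as a description across features that share their arrays. Among 300 probes spotted 6 times on each array, the median SD of the log2 ratio was 0.18 and 0.25. The longest run of probes lost only in *pab2Δ* comprised 8 even-numbered probes, 49000 to 49014. Its mean signal was 64.2 and 64.9 in *pab2Δ*, against 2269 and 2080 in WT, a log2 ratio of −5.17 and −5.07, whereas the other 14 arrays ranged from −0.48 to 0.54. Whether these probes lie in *pab2* cannot be read from the files.

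Sense RNAs changed in both directions in *pab2Δ*. Of the 4080 sense units, 14.02% were higher and 8.97% were lower in *pab2Δ* than in WT (limma, adjusted p under 0.05), against 21.2% higher and 13.9% lower of all 8248 features. On the high-resolution part 356 of 2544 were higher and 230 lower, and on the low-resolution part 216 of 1536 were higher and 136 lower, with extremes of 2.52 and −2.42 there. Of 173418 single probes tested in the same way, 11.7% were higher and 7.42% lower. The median log2 ratio was −0.07 over the sense units and −0.05 over all features. Large changes were mainly rises, with 197 units at least 2-fold higher and 61 at least 2-fold lower. The split was similar among all 8248 features, with 889 at least 2-fold higher and 279 at least 2-fold lower. All 938 units past the threshold had the same sign on both arrays, which is nearly set by the call, as it rests on the mean of these arrays. With 1 array left out of the fit fewer passed, 312 higher and 73 lower without replicate 1 and 240 and 89 without replicate 2. The split depended on the centring: with the median of all probes set to 0, which moved all values by 0.17, 763 were higher and 139 lower. It also depended on the fit: with the 2 *pab2Δ* arrays alone, 755 were higher and 781 lower.

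**Figure D1:**
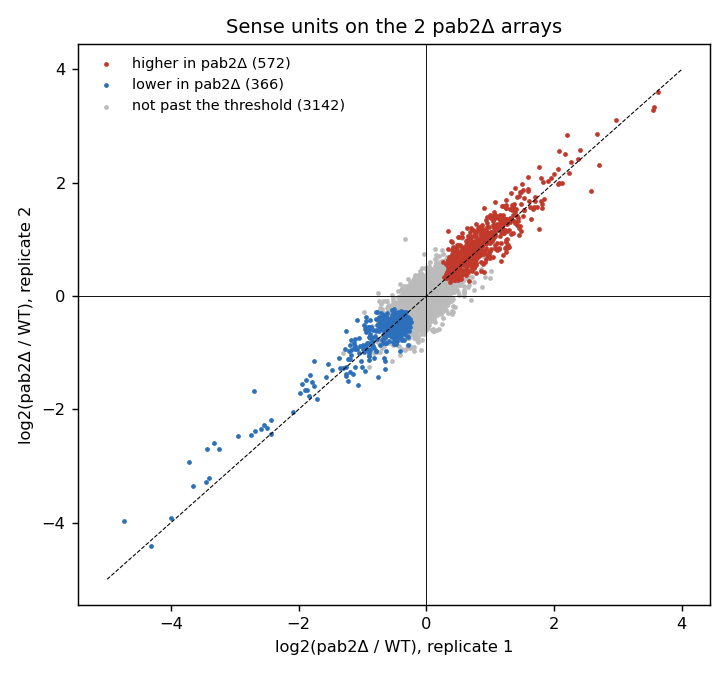
Log2 ratios of *pab2Δ* over WT for 4080 sense units, replicate 1 on the horizontal and replicate 2 on the vertical axis. Red points are the 14.02% of units higher in *pab2Δ*, blue points the 8.97% lower, and grey points did not pass the threshold. The dashed line marks equal values on the 2 arrays.

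The largest rise of a sense unit was that of U8980, which covered 9 even-numbered probes. Its signal was 4879 and 5815 in *pab2Δ*, against 387 and 457 in WT, and the log2 ratio was 3.61 ± 0.02 (SD, n = 2; SE 0.39; adjusted p = 4.69e-05, limma). In U112118 (17 probes) the signal was 6205 and 3757 in *pab2Δ*, against 513 and 352 in WT, 3.45 ± 0.16 (SD, n = 2; adjusted p = 2.10e-06, limma). In both units the *pab2Δ* signals lay far above the WT signals. U9302 was the longest of the strongly raised units, with 26 probes. Its signal was 8175 and 6447 in *pab2Δ* and 680 and 628 in WT, a log2 ratio of 3.42 ± 0.19 (SD, n = 2; adjusted p = 6.75e-07, limma).

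Units U24480, U37066, U131926, U15613 and U54192 followed, with log2 ratios of 3.04, 2.77, 2.51, 2.49 and 2.34. U24480 had a signal of 1550 and 1429 in *pab2Δ* and 194 and 157 in WT. U37066 had 1343 and 791 in *pab2Δ*, against 206 and 103 in WT. U131926 and U131925, a unit of odd probes that was also higher (1.36 and 1.58 on the arrays), overlap on opposite strands. In every one of these 8 units, which were chosen by these values, both *pab2Δ* signals lay above both WT signals. At least 93.8% of their probes were well above background in *pab2Δ* on either array. The same 8 units had log2 ratios between 1.14 and 4.22 in *rrp6Δ* and between 1.58 and 5.33 in *red1Δ*, and between −0.43 and 1.66 in *rmn1Δ*.

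**Figure D2:**
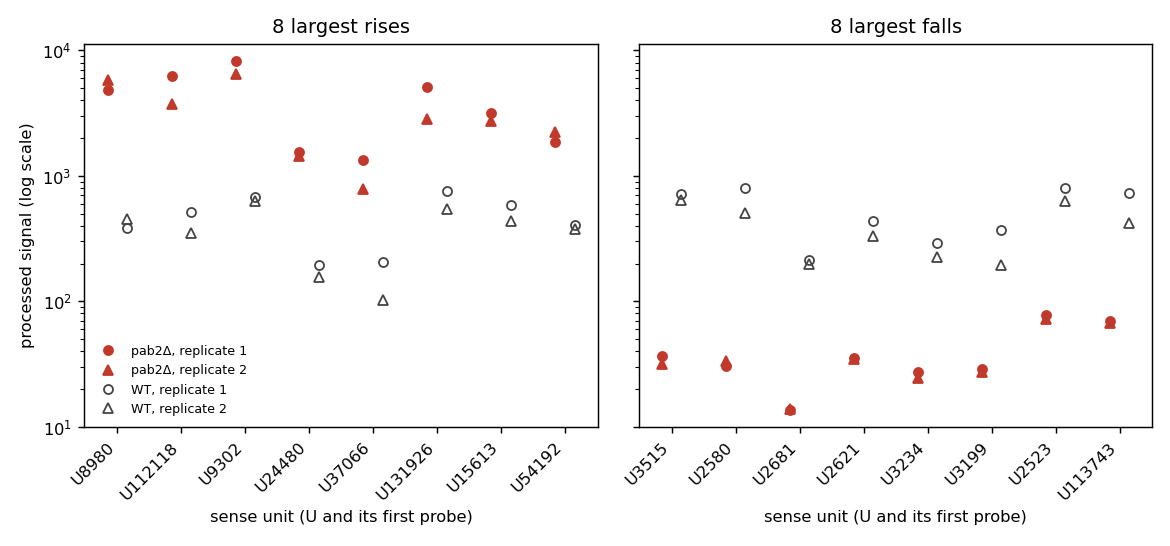
Processed signals (log axis) of the 8 sense units with the largest rise and the 8 with the largest fall. Filled red symbols are *pab2Δ* and open grey symbols WT, circles replicate 1 and triangles replicate 2. *pab2Δ* and WT do not overlap in any of the 16 units, which were chosen by these values.

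The units with the largest falls were dim in *pab2Δ*. U3515 (12 probes) had a signal of 36.9 and 31.7 in *pab2Δ*, against 717 and 640 in WT, a log2 ratio of −4.36 ± 0.07 (SD, n = 2; SE 0.18; adjusted p = 2.34e-07, limma). U2580 (29 probes) had 30.6 and 33.6 in *pab2Δ* and 798 and 503 in WT, −4.35 ± 0.54 (SD, n = 2; adjusted p = 5.74e-06, limma). U2681 (25 probes) had 13.7 and 13.8 in *pab2Δ*, against 214 and 199 in WT, −3.96 ± 0.06 (SD, n = 2; adjusted p = 3.07e-05, limma). U2621, U3234, U3199, U2523 and U113743 fell by 3.50, 3.37, 3.32, 3.31 and 3.07 on the log2 scale. In *pab2Δ* 33.3%, 24.1% and 4.00% of the probes of U3515, U2580 and U2681 were well above background on replicate 1, and 43.8%, 16.7% and 18.2% of those of U2621, U3234 and U3199, so the remaining level, and with it the size of the fall, was poorly measured in these 6 units. In U2523 and U113743 the share was 58.6% and 58.3%. With another background correction (normexp, array medians) the 8 falls were smaller, between −2.53 and −1.57, while the 8 rises lay between 2.07 and 3.28, and all 16 stayed past the threshold.

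Of these 8 units, 7 began between probes 2523 and 3515, near the start of the probe numbering. This clustering was noticed after the values were seen and is given as a description. Among the 51 units that began in the first 4000 probes, 26 were lower and 9 higher in *pab2Δ*, with a median of −0.75. A second stretch, probes 113001 to 114000, held U113743, and 10 of the 11 units that began there were lower in *pab2Δ*, with a median of −1.46 over the 11. In the remaining 2482 units of the high-resolution part, 194 were lower (7.82%) and 347 higher (13.98%). Of the 50 high-resolution units at least 2-fold lower, the first stretch thus held 20, the second 7, and the rest of the array 23. The 7 units near the start were also at low values in *rrp6Δ* (−4.41 to −2.02) and *red1Δ* (−4.57 to −2.25), and at −2.29 to −0.51 in *rmn1Δ*. U113743 had a log2 ratio of −3.43 and −2.71 on the *pab2Δ* arrays, whereas its mean was 0.38 in *rrp6Δ*, 0.28 in *red1Δ* and −1.62 in *rmn1Δ*.

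Among sense units, changes were most frequent in the weakly expressed and the short ones, where the shares were near those of all features. The 2544 high-resolution units were divided into 4 equal groups by the control signal of the 14 arrays of other mutants (wild type on 11). In the dimmest group 146 of 636 units were higher (23.0%) and 75 lower (11.8%) in *pab2Δ*, against 21.2% and 13.9% of all features. In the brightest group 39 of 636 were higher (6.13%) and 32 lower (5.03%). The groups between them had 103 and 68 higher and 69 and 54 lower. By length, 178 of 691 units of 6 to 12 probes were higher, against 48 of 616 units of 31 or more probes, while 76 and 32 were lower. The shares were alike on both strands, with 14.2% higher among units of even and 13.8% among units of odd probes.

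The log2 ratio was not even along the units. Over 1679 units of at least 15 probes, divided into 15 bins from 5′ to 3′, the mean log2 ratio was 0.03 ± 0.03 (SD, n = 2) in the first bin and −0.13 ± 0.02 in the fourth. In the last bin it was 0.24 ± 0.01. The 3′ end was highest in both arrays and also in both called groups. In the 152 units that were higher in *pab2Δ*, the mean was 0.86 ± 0.06 in the first, 0.68 ± 0.03 in the fourth and 1.05 ± 0.01 in the last bin. In the 138 units that were lower, it was −0.68 ± 0.04 in the first, −0.84 ± 0.01 in the fourth and −0.38 ± 0.01 in the last bin. The first bin was thus also above the fourth in both groups.

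Short transcripts changed more often than sense units. Cryptic unstable transcripts (CUTs) of this size are typical exosome substrates, but whether a given short run belongs to them cannot be read from the probe numbers. Of the 1307 short transcripts, 378 were higher (28.9%) and 282 lower (21.6%) in *pab2Δ*, against 21.2% and 13.9% of all features, and 247 and 129 of them by at least 2-fold. Their median log2 ratio was 0.00 (0.01 and −0.04 on the 2 arrays). A unit threshold 1 lower on the log2 scale turned the split, with 448 higher and 641 lower, and in a fit of the 2 *pab2Δ* arrays alone the counts were 485 and 480. Without replicate 1, 255 were higher and 111 lower, and without replicate 2 the counts were 193 and 79.

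The shares differed with the position of a short transcript relative to the units, as a description, since the shares were not tested against each other. Of 234 that lay within 600 bp upstream of a unit and on its other strand, the position of promoter-upstream transcripts (PROMPTs), 111 were higher (47.4%) and 33 lower, with a median of 0.58 (0.45 and 0.72 on the arrays). Of 686 inside a unit on its antisense strand, 162 were higher (23.6%) and 184 lower (26.8%), with a median of −0.13. Of 90 behind a unit on the same strand, 26 were higher and 5 lower. Of 178 with no unit within 600 bp, 45 were higher and 44 lower. Longer runs rose more often, with 23 of 43 runs of 5 probes and 229 of 886 runs of 2 probes higher in *pab2Δ*. No such order was seen for the control signal of the other arrays, with 98 of 327 in the dimmest and 106 of 327 in the brightest of 4 groups.

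**Figure D3:**
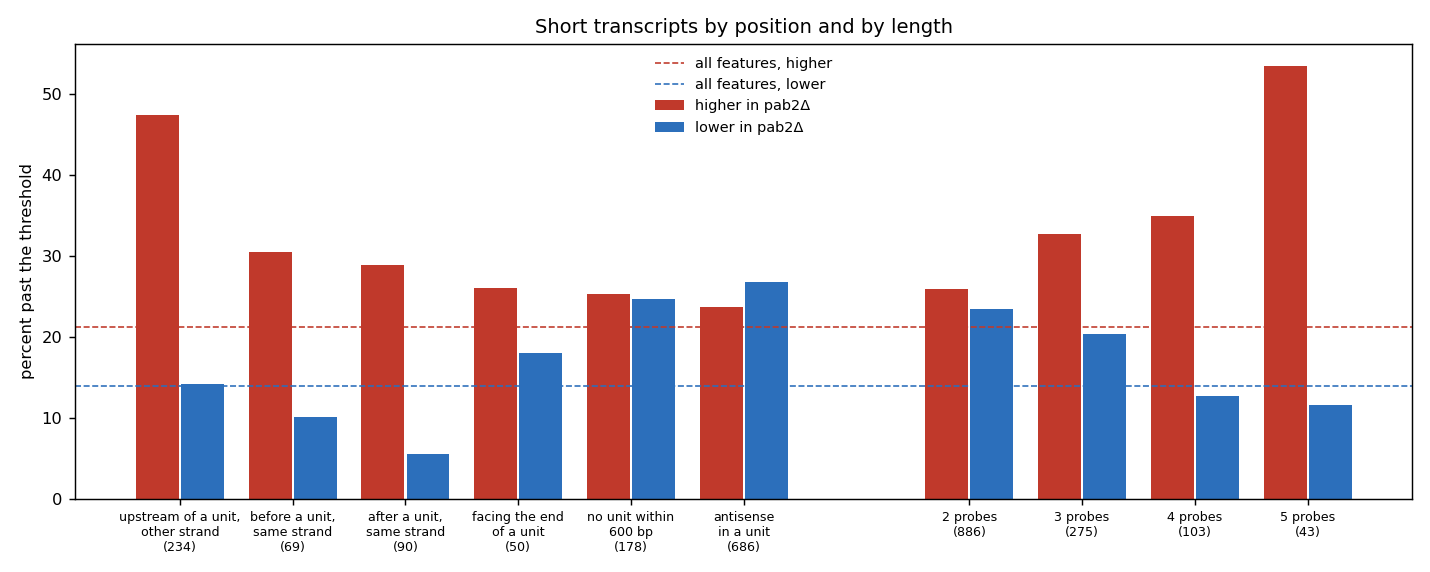
Percent of short transcripts higher (red) and lower (blue) in *pab2Δ*, by position relative to sense units and by number of probes, with the number of transcripts in brackets. Dashed lines are the shares of all 8248 features, 21.2% higher and 13.9% lower; the transcripts upstream of a unit on the other strand stand out with 47.4% higher.

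The short transcripts with the largest rises reached log2 ratios of about 4. S5345 (2 probes) had a signal of 2311 and 2434 in *pab2Δ*, against 146 and 125 in WT, 4.08 ± 0.19 (SD, n = 2; SE 0.29; adjusted p = 3.50e-06, limma). S117813 (4 probes) was the brightest, with 11762 and 11861 in *pab2Δ* and 687 and 691 in WT, 4.05 ± 0.02 (SD, n = 2; adjusted p = 1.56e-07, limma). These 2, S30273 (3.95) and S31485 (3.90) all lay upstream of a unit on the other strand, and S54064 (3.83) lay antisense in a unit. S30273 had 3600 and 3894 in *pab2Δ*, against 263 and 210 in WT. S117813 stood at 4.09 on the *rmn1Δ* array, whereas the other 4 were between 0.67 and 1.79 there. In *rrp6Δ* and *red1Δ* the 5 transcripts had log2 ratios between 2.88 and 4.60.

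The short transcripts with the largest falls came from the same stretches as the sense units. S113797 had 76.96 and 53.2 in *pab2Δ*, against 906 and 586 in WT, a log2 ratio of −3.56 ± 0.04 (SD, n = 2; SE 0.31; adjusted p = 1.20e-05, limma). S113813 (−3.23), S113783 (−3.04) and S113038 (−2.78) lay in the same 1000 probes. S777 (5 probes) near the start had 158 and 184 in *pab2Δ* and 1015 and 818 in WT, −2.47 ± 0.35 (SD, n = 2; adjusted p = 0.00589, limma). S777 did not pass without replicate 1 or without replicate 2 (adjusted p = 0.0926 and 0.0536, limma), nor did S113038 without replicate 1 (adjusted p = 0.106, limma). In *rrp6Δ*, S113038 and S777 were at 3.70 and 3.39, opposite to *pab2Δ*, while in *red1Δ* they were at 0.24 and 0.34.

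The regions behind the short transcripts were measured over the next 3 probes of the strand, where 339 of 1227 were higher (27.6%) and 166 lower (13.5%) in *pab2Δ*, against 21.2% and 13.9% of all features. Of the 355 regions behind a short transcript that was higher, 203 were higher and 13 lower. Of the 268 behind one that was lower, 16 were higher and 101 lower. These regions adjoin the transcript, and both values come from the same arrays. Of the 162 antisense short transcripts that were higher, 35 lay in a unit that was higher and 7 in one that was lower, whereas 120 lay in a unit that did not pass the threshold. Of the 184 that were lower, 10 lay in a higher and 20 in a lower unit.

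Behind the 3′ ends of units, *pab2Δ* RNA exceeded WT RNA more often than the reverse. Of 430 3′ flanks, 123 were higher (28.6%) and 35 lower (8.14%), against 21.2% and 13.9% of all features, with a mean of 0.27 ± 0.06 (SD, n = 2) and a median of 0.07. Relative to their own unit on the same array, 136 flanks were higher and 35 lower (limma, adjusted over 430 flanks), which is 31.6% and 8.14% of those tested. The median difference was 0.24 (0.24 and 0.20 on the 2 arrays). In a fit of the 2 *pab2Δ* arrays alone, 158 flanks were higher and 87 lower. Without replicate 1, 69 flanks were higher and 9 lower, and 68 and 12 relative to their unit. Without replicate 2 the counts were 73 and 5, and 82 and 16 relative to the unit. Of the 123 raised flanks, 33 belonged to a unit that was also higher, 6 to a unit that was lower and 84 to a unit that did not pass the threshold.

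The rise was concentrated next to the unit. The mean log2 ratio over 430 units was 0.41 ± 0.01 (SD, n = 2) at the first probe behind the unit, 80 bp away, 0.45 ± 0.05 at 160 bp and 0.35 ± 0.10 at 240 bp. It was 0.23 ± 0.08 at 320 bp and 0.09 ± 0.03 at 560 bp. Signals were low throughout. The median at 80 bp was 88.4 and 79.5 in *pab2Δ*, against 65.7 and 51.4 in WT, and at 560 bp it was 29.5 and 29.5 in *pab2Δ* and 26.4 and 19.1 in WT. Of the 309 flanks followed by a unit on the same strand, 90 were higher and 18 lower. Of the 113 followed by a unit on the other strand, 32 were higher and 16 lower. The share of raised flanks was 29.1% and 28.3% in these groups.

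**Figure D4:**
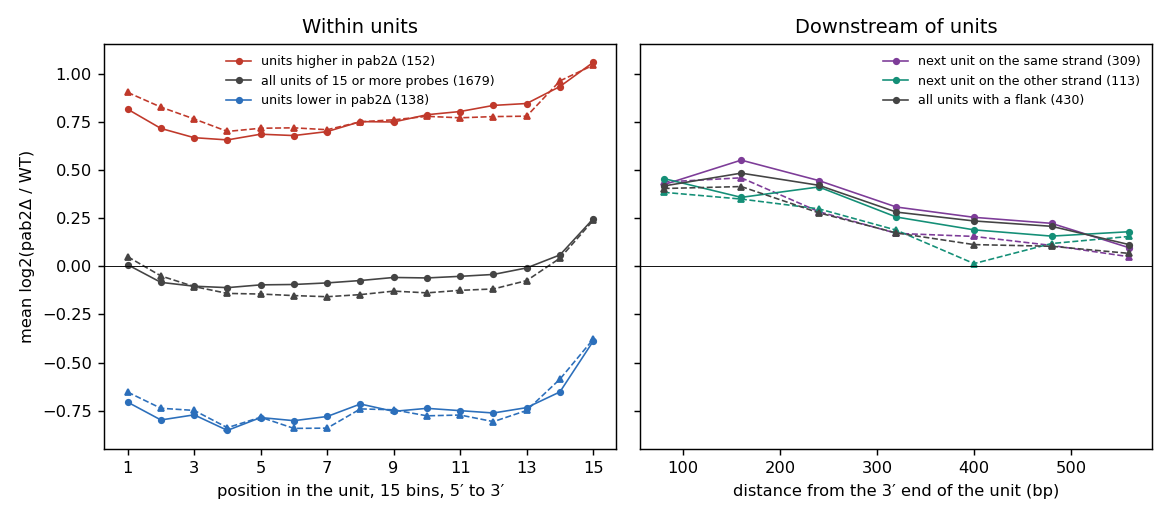
Mean log2 ratio of *pab2Δ* over WT within units (left, 15 bins from 5′ to 3′) and behind their 3′ ends (right, by distance in bp). Solid lines with circles are replicate 1 and dashed lines with triangles replicate 2; over all units the last bin reaches 0.24, and the ratio behind the units falls to 0.09 at 560 bp.

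Single flanks rose while their units stayed near WT. In the flanks of U136675, U94249, U13637 and U31882 at most 28.6% of the probes were well above background in WT on either array, against at least 85.7% in *pab2Δ*, so the size of their differences is poorly measured. The flank of U136675 had a signal of 216 and 230 in *pab2Δ*, against 19.8 and 13.3 in WT, and its unit had 590 and 485 in *pab2Δ* and 676 and 523 in WT. The flank exceeded the unit by 3.93 ± 0.41 (SD, n = 2; SE 0.31; adjusted p = 4.41e-07, limma). When units were defined from the 13 arrays with wild-type controls, this unit was split, and the same probes lay behind U136719 with a difference of 3.74 (adjusted p = 1.26e-06, limma). The flank of U94249 had 186 and 166 in *pab2Δ*, against 16.9 and 15.5 in WT, where none of its 7 probes was well above background. It was at least 3.27-fold higher in *pab2Δ*, taking the lowest signal well above background as the WT level, and was higher relative to its unit, which had a log2 ratio of 0.00 (adjusted p = 3.79e-08, limma). The flank of U13637 had 340 and 279 in *pab2Δ* and 39.9 and 26.1 in WT, 3.08 ± 0.62 above the unit (SD, n = 2; adjusted p = 1.99e-06, limma). The flank of U31882 exceeded its unit by 2.55.

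A larger relative value did not always mean more RNA behind the unit. The flank of U3515 exceeded its unit by 3.96 (adjusted p = 4.44e-10, limma), the largest difference of all. The unit had fallen by 4.36 and the flank had a log2 ratio of −0.40 (adjusted p = 0.22, limma), with 18.9 and 10.3 in *pab2Δ* and 22.6 and 13.8 in WT. At most 14.3% of its probes were well above background in either channel on either array. Of the 136 flanks higher relative to their unit, 92 were themselves higher in *pab2Δ*, and in 55 of these at least 50% of the probes were well above background in *pab2Δ* on both arrays. Of the 60 flanks behind units that were lower, 38 were relatively higher but 6 were themselves higher.

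Of the 35 flanks that were lower relative to their unit, 15 lay behind a unit that was higher and 12 were themselves lower. The flank of U83336 had 71.7 and 68.8 in *pab2Δ* and 49.2 and 43.2 in WT, while the unit had 716 and 902 in *pab2Δ*, against 166 and 146 in WT. The difference was −1.76 ± 0.28 (SD, n = 2; adjusted p = 8.99e-05, limma). The flanks of U3351, U36881, U15704 and U131925 had differences of −2.01, −1.68, −1.44 and −1.42. In all 5 the unit itself was higher in *pab2Δ*, by 1.01 to 2.32. In the flanks of U3351, U36881 and U131925 at most 28.6% of the probes were well above background in either channel on either array. The size of their differences is therefore poorly measured.

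The longest extension was found behind U112118, one of the units with the largest rise, and was singled out after its values were seen. Its flank had a signal of 1052 and 1039 in *pab2Δ*, against 29.3 and 22.1 in WT, a log2 ratio of 5.31 (SE 0.21; adjusted p = 2.32e-07, limma), 1.85 above that of the unit. In WT 28.6% and 14.3% of its probes were well above background, so the size of the ratio is poorly measured. All 7 probes of the flank were above the unit threshold in *pab2Δ* on both arrays, and in WT the first was already below it. The run of probes above the threshold in *pab2Δ* and below it in WT on both arrays comprised 15 probes, 112084 to 112112, about 1120 bp. It ended there because probe 112114 was at 7.93 in WT on replicate 2, above the threshold. The flank stood at 5.31 in *rrp6Δ*, 4.36 in *red1Δ* and 0.59 in *rmn1Δ*.

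Few extensions reached the level of a unit. Counting the probes above the threshold without a break from the 3′ end, 13 and 12 of 430 units extended over 3 or more probes in *pab2Δ* on the 2 arrays, against 0 and 0 in WT. Units end where the average control signal, which includes these WT channels, falls below the threshold. Long WT extensions were thus nearly excluded by definition, and these counts are a description. The extension was at least 2 probes longer in *pab2Δ* than in WT on both arrays for 17 units and at least 2 probes shorter for 0. By at least 1 probe it was longer for 36 units and shorter for 7. Across the high-resolution part, 236 runs of at least 3 probes were above the threshold in *pab2Δ* and below it in WT on both arrays, and 35 runs were the reverse. Of the 236, 82 lay antisense in a unit, 61 upstream of a unit on the other strand, 53 at positions that the average control signal placed inside a unit, and 18 behind a unit on the same strand. These runs were chosen by their values and have no test.

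How *pab2Δ* differed from other mutants of the pathway was asked with direct contrasts of the log2 ratios. Each ratio was taken against the WT strain of its own mutant, so the contrasts also hold any difference between these strains. Against *rrp6Δ*, 344 sense units were higher and 445 lower in *pab2Δ*, against 7.94% higher and 17.1% lower of all features. This split rests on the centring: without it, which moved all differences by 0.29, 818 were higher and 214 lower. Against *red1Δ*, 82 were higher and 30 lower (all features, 1.64% and 1.62%). Against the single *rmn1Δ* array, which has no replicate check and was taken to vary like the arrays of other mutants, 117 were higher and 42 lower (all features, 4.84% and 1.45%). With slide as a fixed term none of the last passed, although 466 had an unadjusted p under 0.05 (limma).

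Against *rrp6Δ*, 105 of 1307 short transcripts were higher and 272 lower in *pab2Δ* (8.03% and 20.8%), against 7.94% and 17.1% of all features, and 9 of 430 flanks were higher and 135 lower (2.09% and 31.4%). Without centring the counts were 177 and 178 short transcripts and 31 and 96 flanks. Against *red1Δ* the counts were 22 and 38 short transcripts (1.68% and 2.91%) and 4 and 16 flanks (0.93% and 3.72%), against 1.64% and 1.62% of all features. Against the single *rmn1Δ* array the median difference was −0.12 over short transcripts and −0.0003 over flanks, against −0.05 over all features. A median near 0 does not exclude differences in a part of the flanks. The sense units that were higher in *pab2Δ* had a median log2 ratio of 0.80 in *pab2Δ*, the values that chose them, and 0.53 in *rrp6Δ*, 0.68 in *red1Δ* and 0.12 in *rmn1Δ*. In the remaining mutants their medians were 0.23 (*mtl1-17*), 0.14 (*cid14Δ*), 0.04 (*iss10Δ*), −0.03 (*mmi1Δ mei4-P572*) and −0.08 (*sen1Δ*). For the 378 short transcripts higher in *pab2Δ* the medians were 1.26 in *pab2Δ*, 1.28 in *rrp6Δ*, 1.47 in *red1Δ* and 0.43 in *rmn1Δ*.

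Single units moved in opposite directions in *pab2Δ* and *rrp6Δ*. U95307 had log2 ratios of 1.25 and 1.55 in *pab2Δ*, against −2.77 and −2.95 in *rrp6Δ*, a difference of 4.26 (SE 0.25; adjusted p = 2.66e-06, limma). Its neighbour U95323 had 1.24 and 1.29 in *pab2Δ* and −2.20 and −1.93 in *rrp6Δ*, and U44029 had 0.89 and 0.79 in *pab2Δ*, against −3.41 and −1.94 in *rrp6Δ*. In the other direction, U115040 stayed at 0.02 and 0.22 in *pab2Δ*, against 6.48 and 5.90 in *rrp6Δ*, a difference of −6.07 (SE 0.32; adjusted p = 1.45e-06, limma). U113053 and U756, in the 2 stretches of low units, had −1.84 and −1.76, and −2.08 and −2.05, in *pab2Δ*. In *rrp6Δ* they had 2.23 and 4.12, and 1.82 and 3.86. Replicate 2 of *pab2Δ*, *rrp6Δ* and *red1Δ* shared a slide, and within it all 789 units called against *rrp6Δ* and all 112 called against *red1Δ* kept their sign, which these arrays helped to set.

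Differences from *red1Δ* were fewer. U171859, of the low-resolution part, had 0.69 and 1.00 in *pab2Δ*, against −4.46 and −4.92 in *red1Δ*, a difference of 5.54 (adjusted p = 1.58e-06, limma). Its means in the other 8 mutants ranged from −0.14 to 1.07, and whether it lies in *red1* cannot be read from the files. U95307 and U8263 were higher in *pab2Δ* by 2.91 and 2.11. U113743 had −3.43 and −2.71 in *pab2Δ*, against 0.08 and 0.48 in *red1Δ*, and U53385 had −2.70 and −1.68 in *pab2Δ* and 0.60 and 1.31 in *red1Δ*. The signal of U53385 was low, 33.6 and 23.6 in *pab2Δ* and 214 and 71.9 in WT. Its difference from *red1Δ* did not pass without replicate 1 or without replicate 2 of *pab2Δ* (adjusted p = 0.165 and 0.0705, limma), and was −1.73 with normexp and array medians (adjusted p = 0.168, limma). U63901 was raised in both mutants, to 1.49 and 1.62 in *pab2Δ*, against 4.64 and 4.46 in *red1Δ*, a difference of −2.997 (adjusted p = 0.000117, limma).

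*pab2Δ* and *rmn1Δ* lack subunits of the same submodule. U12749 (30 probes) had −0.12 and −0.15 in *pab2Δ*, against −4.12 on the *rmn1Δ* array. Its means in the other 8 mutants ranged from −0.32 to 0.07, and whether it lies in *rmn1* cannot be read from the files. U150943 had 2.06 and 1.97 in *pab2Δ*, against −1.33 in *rmn1Δ*, and U8980 had 3.62 and 3.60, against 0.54. U3515, U3234 and U2580, of the first stretch of low units, had differences of −3.85, −2.78 and −2.49 from *rmn1Δ*, with *rmn1Δ* at −0.51, −0.58 and −1.86. None of the 6 differences passed with slide as a fixed term (adjusted p = 0.0555 to 0.104, limma), where U150943 was at 2.19 and U2580 at −4.13. U8980 and U2580 did not pass without either *pab2Δ* array (adjusted p = 0.0849 and 0.103 for U8980, 0.137 and 0.0740 for U2580, limma), and with normexp and array medians the differences of U3234 and U2580 were −0.92 and −0.83 (adjusted p = 0.195 and 0.383, limma).

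**Figure D5:**
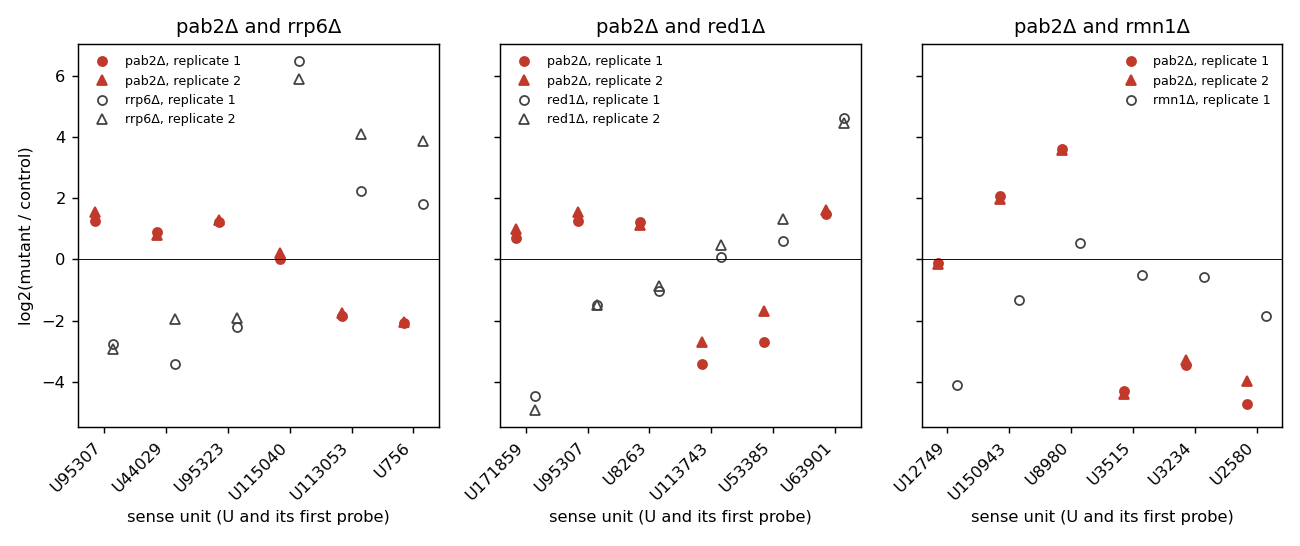
Log2 ratios of mutant over control on single arrays for the 3 sense units with the largest difference in each direction, *pab2Δ* (red, filled) against *rrp6Δ*, *red1Δ* and *rmn1Δ* (grey, open). Circles are replicate 1 and triangles replicate 2; U115040 lies at 0.02 and 0.22 in *pab2Δ*, against 6.48 and 5.90 in *rrp6Δ*.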

How the data were processed

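RNA of *pab2Δ* (Cy5) and WT (Cy3) was compared on 2 custom Agilent tiling arrays. The deposited intensity values (processed signals) were made by the authors with Agilent Feature Extraction 10.7.3.1, with background subtraction and dye normalization within each array. The deposited log10 ratio, which that software set to 0 for 16.8% and 17.2% of the probes of the 2 *pab2Δ* arrays, and the log2 ratio of the series table, which equals it where the software's p-value was at most 0.05 and is otherwise 0, were used as alternatives. The deposited p-value column served for that comparison only.

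Log2 ratios of the processed signals were computed for all tiling probes. Outlier spots (165 and 21) were left out. Units were runs of probes above a threshold set by Otsu's method after a running median of 5 probes (3 on the low-resolution part). 3′ flanks needed 600 bp without other units and 100 bp on the opposite side. All 16 arrays of 9 mutants entered a limma fit (lmFit, eBayes; 7 residual degrees of freedom), and p-values were two-sided and adjusted over 8248 features (Benjamini-Hochberg, threshold 0.05), those of flanks relative to units over 430. As mutants share this spread, p-values rest on more than the 2 *pab2Δ* arrays. SD is over the 2 arrays, whose number limits the precision.

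Named features were the 8 high-resolution sense units with the largest rise and the 8 with the largest fall, 5 short transcripts and 5 relative flanks per direction, and 3 units per direction of each contrast, all past the threshold with the same sign on both *pab2Δ* arrays. Members and lists were chosen with earlier results of these data known. Alternatives covered background correction (normexp, offset 50), centring, summaries, dim probes, slides, replicate numbers, thresholds and unit definitions. Further ones, added after the data were seen, were the deposited log ratio, units from the 13 arrays with wild-type controls and counts without the 2 stretches of low units. On simulated data for *pab2Δ* against WT (8248 features), 77 of 100 features changed by 1 and 99 of 100 changed by 2 log2 units were recovered, with 14 false calls. The simulated errors were independent with 1 SD per feature, whereas the real arrays had a correlation of 0.43 within slides. The 14 is therefore not an error rate of the real calls. R 4.3.3, limma 3.58.1, Python 3.11.15, numpy 2.4.6, pandas 2.3.3 and scipy 1.17.1 were used.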

Additional observations from a re-analysis of the deposited data

Results flagged for a closer look

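Differences between *pab2Δ* and another mutant were tested directly (limma contrasts, adjusted p under 0.05) and drew attention to 789 sense units against *rrp6Δ*, 112 against *red1Δ* and 159 against *rmn1Δ*. Against *rrp6Δ*, the differences of log2 ratios (*pab2Δ* minus *rrp6Δ*) were 4.26 for U95307, 3.52 for U44029 and 3.33 for U95323, and −6.07 for U115040, −4.97 for U113053 and −4.91 for U756. Against *red1Δ*, they were 5.54 for U171859, 2.91 for U95307 and 2.11 for U8263, and −3.35 for U113743, −3.15 for U53385 and −2.997 for U63901. Against *rmn1Δ*, they were 3.99 for U12749, 3.35 for U150943 and 3.08 for U8980, and −3.85 for U3515, −2.78 for U3234 and −2.49 for U2580. *pab2Δ* and *rmn1Δ* shared no slide. Their difference cannot be given within a slide.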

How the results depend on the processing

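Named results kept their direction under every alternative that could be run, except the relative flank of U136675 (−0.10), whose unit was split when units came from the 13 arrays with wild-type controls, an alternative added after the data were seen under which 37 of 54 named features kept their first probe. Of 768 values with both *pab2Δ* arrays in the fit, 752 stayed past the threshold with the same direction. Slide as a fixed term (13 arrays, without *mmi1Δ mei4-P572* and *sen1Δ*, 1 residual degree of freedom) accounted for 6 of the 15 lost calls, the 2 normexp settings for 6 (U53385 against *red1Δ*, U3234 and U2580 against *rmn1Δ*), and 3 others were single cases, among them the relative flank of U15704 with flanks of 300 bp (−0.20). With 1 *pab2Δ* array left out, 9 of 108 named calls were lost, 5 without replicate 1 and 4 without replicate 2, for S777, S113038, U53385 against *red1Δ*, and U8980 and U2580 against *rmn1Δ*. Counts were less stable, and the cause was not tested. Without one *pab2Δ* array the calls ranged from 329 to 385 sense units (938 with both), 272 to 366 short transcripts (660), 78 3′ flanks with either left out (158), 80 to 98 relative flanks (171), 237 to 292 regions behind short transcripts (505), and 11176 to 14931 of 173418 probes (33136). For the differences of sense units they ranged from 263 to 406 against *rrp6Δ* (789), 16 to 27 against *red1Δ* (112) and 30 to 44 against *rmn1Δ* (159). With an absolute log2 value of at least 1 the calls were 258 sense units, 376 short transcripts, 68 flanks, 82 relative flanks, 279 regions behind short transcripts and 342 units against *rrp6Δ*. A fit of the 2 *pab2Δ* arrays alone gave 1536 sense units (755 higher, 781 lower), 245 flanks and 832 regions behind short transcripts. The median over probes gave 95 flanks, and probes well above background alone gave 111 relative flanks. A unit threshold 1 higher gave 255 flanks, and 1 lower gave 90 flanks and 1089 short transcripts. With same-strand neighbours only, 823 flanks and 694 relative flanks were called, as more units then had a flank. Slide as a random block gave 1364 units against *rrp6Δ* and 237 against *red1Δ*. Slide as a fixed term gave 69 against *red1Δ* and 0 against *rmn1Δ*. Normexp with array medians gave 52 against *red1Δ*.

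Centring moved the split between higher and lower calls. With the median of all probes at 0, calls were 415 and 199 short transcripts, 145 and 18 flanks, 399 and 110 regions behind short transcripts, 603 and 204 units against *rrp6Δ* and 131 and 20 against *rmn1Δ*. Normexp with array medians gave 820 and 212 units against *rrp6Δ*, 127 and 11 against *rmn1Δ*, 113 and 7 flanks, and 332 and 56 regions behind short transcripts. Without centring, 112 and 22 units were called against *red1Δ*. The replicate numbers did not pair the arrays of all mutants alike. Deviations correlated between −0.51 and 0.68 over 21 pairs of mutants, and 10 pairs were over 0.1. Whether some of the mutants were paired was not tested. The replicate block gave 955 sense units. Dim flanks limit the depth of the 3′ results, as 167 of 430 had at least 50% of their probes well above background in *pab2Δ* on both arrays.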
